A study of Mus musculus with 12 samples.

Results

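The 9 genes described here encode the signalling chains of the T cell receptor (TCR) complex, the CD8 co-receptor and the first enzymes and adaptors that act below it. They are Cd3d, Cd3e, Cd3g, Cd247, Cd8a, Lck, Zap70, Lat and Lcp2, taken by gene symbol from a table of 11022 genes, and all 9 had a row. Messenger RNA was measured by RNA sequencing in cytotoxic T lymphocytes (CTL), which are CD8+ effector T cells, grown from P14 mice. This strain carries a transgenic TCR specific for a peptide of lymphocytic choriomeningitis virus, so the cells were studied for 1 receptor specificity. The methods describe no sorting of these cultures, and whether every cell carried only this receptor is not known. All 12 cultures had been activated for 48 h, expanded to day 7 and kept in interleukin 2 at 20 ng/mL, also in the control group. The 4 groups of 3 samples were unstimulated CTL, CTL given the gp33-41 peptide at 100 ng/mL for 4 h (TCR), CTL given the peptide with 10 µM IC87114, which inhibits PI3K p110δ (TCR+PI3Kdi), and CTL given the peptide with 2 µM PD184252, which inhibits MEK (TCR+MEKi). The methods name DMSO as the vehicle, and the cells came from lymph nodes or spleens of 3 female mice. No group received an inhibitor without peptide.

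The T cell receptor recognises peptide bound to an MHC molecule but has no signalling tail of its own, and depends on the CD3γ, CD3δ, CD3ε and ζ chains, whose cytoplasmic motifs are phosphorylated on tyrosine. CD8 binds MHC class I and brings the Src family kinase LCK to the receptor. LCK phosphorylates the chains, the kinase ZAP-70 docks on them and is itself activated, and ZAP-70 then phosphorylates the adaptors LAT and SLP-76 (encoded by Lcp2), on which phospholipase C, Ras activators and actin regulators assemble. PI3K p110δ and the MEK to ERK pathway lie further down, and the 2 inhibitors were used in the study to ask which part of the mRNA response needs each of them. The antigen-binding TCR α and β chain genes had no row in the table under the 5 symbols sought (Trac, Trbc1, Trbc2, Tcra, Tcrb) and were not analysed here.

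Values are FPKM, fragments per kilobase of exon relative to the library size, scaled by the authors between samples, and levels of different genes may be compared because FPKM is per length. All 6 markers of CD8+ cytotoxic cells were in the table. None of the 5 B cell, 3 γδ T cell and 4 erythroid markers had a row, 1 of 6 macrophage markers did (Cd68, 4.88 to 8.44 FPKM per sample), as did 1 of 5 dendritic cell markers (Zbtb46, 0.02 to 3.63 FPKM). Mean Zbtb46 was 0.03 FPKM in unstimulated, 3.49 in TCR, 1.97 in TCR+PI3Kdi and 3.11 in TCR+MEKi samples. The γδ T cell markers include the TCR chain genes Trdc and Tcrg-C1. The TCR α and β chain genes had no row either, so a missing row of a TCR gene does not measure its expression. Of 3 CD4+ T cell markers 2 had a row (Cd4 and Cd40lg), with Cd4 itself at 0.28 to 3.65 FPKM. Its mean was 0.77 FPKM in unstimulated, 2.69 in TCR, 2.94 in TCR+PI3Kdi and 0.45 in TCR+MEKi samples. Mean Cd40lg was 1.16 FPKM in unstimulated, 112 in TCR, 47.5 in TCR+PI3Kdi and 39.3 in TCR+MEKi samples. The paper lists Cd40lg among the mRNAs that the TCR induces in these CTL and that are under the control of both PI3K p110δ and ERK1/2. Of 4 natural killer cell markers 2 had a row (Klrb1c and Eomes), and they went in opposite directions with peptide. In the unstimulated, TCR, TCR+PI3Kdi and TCR+MEKi groups mean Klrb1c was 5.39, 1.79, 2.27 and 1.59 FPKM. Mean Eomes was 73.2, 109, 113 and 75.4 FPKM in the same order, and the paper counts Eomes among key transcription factors of CD8+ T cells. The part of other cell types in the results was not tested. In bulk RNA a change in the number of cells of a type and a change in RNA per cell cannot be told apart. Replicates of a group correlated at r = 0.993 to 0.995 across genes, which are not independent replicates, and the approximate depth was 7600000 to 13420000 reads a sample. At these depths, which could not be checked, each of the 9 genes rested on about 2143 reads or more in every sample, a counting error of at most 2.2%. The FPKM values of a sample added up to 470421 at the lowest and 666922 at the highest, with the 3 TCR samples above the other 9, so directions were also read after dividing each sample by its own sum.

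Among the 9 genes only the 3 CD3 genes lie together. On mouse chromosome 9 (GRCm38, GENCODE M21) Cd3g (44969572 to 44980431, minus strand) and Cd3d (44981786 to 44987339, plus strand) point away from each other with starts 1355 bases apart, and Cd3e (44998740 to 45009627, minus strand) starts 27841 bases from Cd3d. The other genes were on chromosome 1 (Cd247, 165788681 to 165877277, and Zap70, 36761798 to 36782818), chromosome 4 (Lck, 129548344 to 129573641), chromosome 6 (Cd8a, 71373427 to 71379173), chromosome 7 (Lat, 126363824 to 126369570) and chromosome 11 (Lcp2, 34046920 to 34092295). Exons of Cd247 overlap those of Pou2f1 on the opposite strand over 3007 bases, and since it is not stated whether reads were counted by strand, reads of these 2 genes may not have been told apart. Cd3e and Lcp2 have opposite-strand overlaps of 135 and 282 bases, and annotated microRNAs lie within exons of Lat and Lck on the same strand. Of the 9 genes Cd247 alone shared 100-base transcript stretches with another gene, Gm16565, over 1.9% of its length.

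The sequences just before the starts of 5 of the genes are shown for the CD3 cluster, the 3 genes that lie together, and for the adaptors Lat and Lcp2, the 2 genes that fell with the MEK inhibitor. Each is the 250 bases before a RefSeq start (GRCm38.p6), written 5′ to 3′ on the strand of the gene, and capitals mark matches to the 5 motifs described after them.
Cd3g, chr9:44980432-44980681, minus strand: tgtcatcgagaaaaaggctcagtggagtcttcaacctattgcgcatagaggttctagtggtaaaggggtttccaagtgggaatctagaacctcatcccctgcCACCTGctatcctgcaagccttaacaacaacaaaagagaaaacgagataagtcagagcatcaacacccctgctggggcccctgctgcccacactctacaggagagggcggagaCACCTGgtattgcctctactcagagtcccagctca
Cd3d, chr9:44981536-44981785, plus strand: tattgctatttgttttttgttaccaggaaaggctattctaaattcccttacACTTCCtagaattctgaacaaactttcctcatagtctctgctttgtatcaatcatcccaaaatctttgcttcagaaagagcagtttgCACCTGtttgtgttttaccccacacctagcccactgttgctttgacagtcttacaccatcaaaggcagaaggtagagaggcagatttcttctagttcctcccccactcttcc
Cd3e, chr9:45009612-45009861, minus strand: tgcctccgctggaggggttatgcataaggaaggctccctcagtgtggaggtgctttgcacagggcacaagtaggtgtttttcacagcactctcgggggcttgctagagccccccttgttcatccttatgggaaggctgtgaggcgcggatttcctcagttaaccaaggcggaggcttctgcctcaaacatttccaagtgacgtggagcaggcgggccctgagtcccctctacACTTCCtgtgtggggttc
Lat, chr7:126369569-126369818, minus strand: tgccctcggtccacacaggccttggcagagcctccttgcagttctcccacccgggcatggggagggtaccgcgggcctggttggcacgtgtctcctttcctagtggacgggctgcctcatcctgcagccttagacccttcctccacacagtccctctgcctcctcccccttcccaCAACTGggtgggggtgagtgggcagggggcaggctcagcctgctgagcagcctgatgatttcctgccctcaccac
Lcp2, chr11:34046678-34046927, plus strand: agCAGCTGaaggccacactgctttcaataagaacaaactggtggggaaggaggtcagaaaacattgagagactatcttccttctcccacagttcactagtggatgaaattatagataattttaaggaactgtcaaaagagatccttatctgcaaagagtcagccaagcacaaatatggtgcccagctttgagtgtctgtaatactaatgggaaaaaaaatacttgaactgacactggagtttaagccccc

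The motifs were searched on both strands in the same 250 bases of all 12 RefSeq starts of the 9 genes and of 32851 starts in the whole table of promoters, and the matches in the 5 printed sequences did not overlap one another. The ETS letters GGAAGT were found before 6 of the 12 starts, in 5 of 9 genes, where 19.7% of all starts had them. In the printed sequences they stand, on the opposite strand, once before Cd3d and once before Cd3e. The E-box letters CAGNTG were found before 8 of 12 starts (44.8% of all starts), among them those of Cd3g, Cd3d, Lat and Lcp2. The RUNX letters TGTGGT were found before 2 of 12 starts (14% of all), both of them starts of kinase genes, Lck and Zap70. The AP-1 letters TGANTCA (6.7% of all starts) and the EGR letters GCGNGGGCG (4.7%) had no match in these windows. A match describes letters and not a bound site.

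All 9 genes were among the more abundant mRNAs of the unstimulated cells, from Cd247 at 49.3 ± 4.43 FPKM (mean ± SD, n = 3), above 85.7% of the genes in the table, to Lat at 351 ± 5.33 FPKM, above 98.4%. The order of mean levels in unstimulated CTL was Lat, Cd3g, Lck, Cd8a, Cd3d, Cd3e, Lcp2, Zap70 and Cd247. Neighbours whose samples overlapped were Lat with Cd3g and Cd8a with Cd3d, and the samples of the other neighbours were apart. Within the receptor complex the CD3 mRNAs were unequal, with Cd3g at 2.41 to 2.92 times Cd3e and Cd247, which encodes the ζ chain, at 0.364 to 0.427 times Cd3e. After peptide the order was Lat, Cd8a, Cd3g, Lck, Cd3d, Lcp2, Zap70, Cd3e and Cd247, with only Cd3g and Lck overlapping. With the PI3K inhibitor Lck and Lcp2 overlapped, as did Cd3e and Zap70, and Lck stood below Cd3d. With the MEK inhibitor Cd8a was the most abundant of the 9 and Lat, which overlapped with Cd3g, was next. Replicates were close: the median coefficient of variation of the 9 genes was 4.6%, 4.6%, 4.0% and 3.9% in the unstimulated, TCR, TCR+PI3Kdi and TCR+MEKi groups, where genes of at least 50 FPKM had medians of 4.6%, 5.2%, 5.5% and 3.5%.

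**Figure D1:**
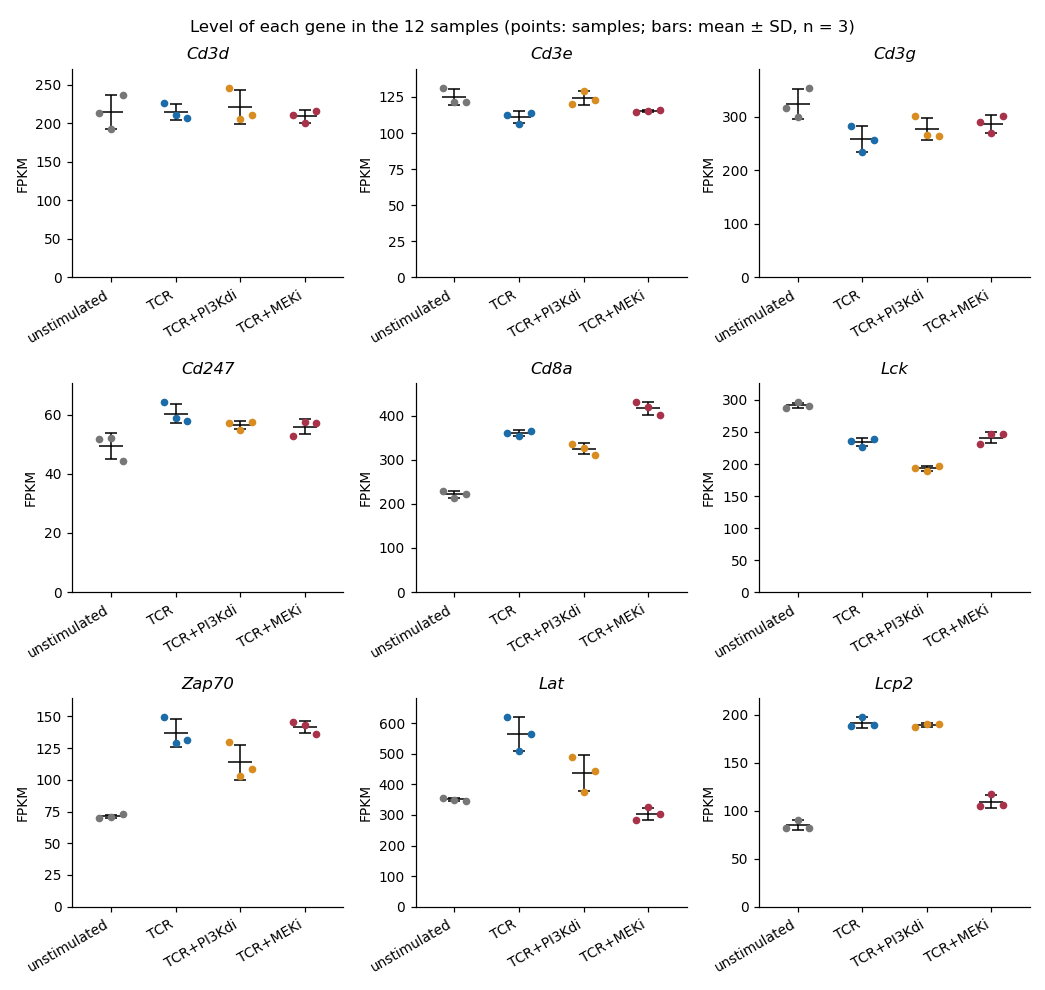
FPKM of each gene (vertical axes, from 0) in the 3 samples of each of the 4 groups (horizontal axes), with points for samples and bars for the mean ± SD. Zap70, Cd8a and Lcp2 lie higher in all TCR samples than in any unstimulated sample, Lck lies lower, and Lat and Lcp2 fall back in the TCR+MEKi samples.

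The first question was whether the genes of the receptor machinery themselves change when CTL meet antigen. Peptide raised 5 of the 9 mRNAs (Lcp2, Zap70, Cd8a, Lat and Cd247) and lowered 3 (Cd3g, Lck and Cd3e) at a Benjamini-Hochberg adjusted p under 0.05 in limma, and Cd3d did not pass. The samples of these 8 genes did not overlap between the groups, as was so for 71.2% of all genes. Over all genes 68.6% passed this rule (33.6% higher, 34.9% lower), so 8 of 9 is a count to be read against a response in which most genes moved. Only Lcp2 also passed the threshold of more than 2-fold that the study used, a rule that 20.0% of all genes passed. The median log2 difference of the 9 genes was 0.29 and that of all genes -0.01. With samples divided by their own sums the split was 4 higher and 4 lower with none past 2-fold, and the median of all genes moved to -0.41. Quantile normalisation gave 5 higher and 4 lower, again with none past 2-fold. The split of all genes past 2-fold was 978 higher and 1224 lower as deposited, 647 and 2276 on the common sum, and 921 and 1216 after quantile normalisation.

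Of the 4 receptor chains 2 fell, 1 rose and 1 did not pass. Cd3d, the CD3δ chain, measured 213, 193 and 237 FPKM in the unstimulated replicates 1 to 3 and 226, 211 and 208 FPKM in the TCR replicates. These ranges overlap, and the difference was not past the threshold (log2 difference 0.01, SE 0.08, adjusted p = 0.948 in limma, 95% interval -0.16 to 0.17). On the common sum Cd3d was lower in TCR samples (log2 difference -0.41, adjusted p = 1.92e-05) and after quantile normalisation also (-0.24, adjusted p = 0.00326). Cd3e, the CD3ε chain that pairs with both CD3γ and CD3δ, measured 132, 122 and 122 FPKM without peptide and 113, 106 and 114 FPKM with it. The groups were apart and Cd3e fell (log2 difference -0.17, SE 0.05, adjusted p = 0.00792), with larger differences of -0.58 on the common sum and -0.35 after quantile normalisation. Cd3g, the CD3γ chain, measured 317, 300.0 and 355 FPKM and then 283, 235 and 256 FPKM. Every TCR sample was below every unstimulated one and the fall passed the test (log2 difference -0.33, SE 0.08, adjusted p = 0.00213), at -0.74 on the common sum and -0.66 after quantile normalisation. Cd247, the ζ chain, went the other way, from 51.7, 52.1 and 44.2 FPKM to 64.2, 58.9 and 57.98 FPKM. Its groups did not overlap (log2 difference 0.29, SE 0.07, adjusted p = 0.00127), but on the common sum its log2 difference was -0.12 (adjusted p = 0.146) and after quantile normalisation 0.17 (0.0466), and its overlap with Pou2f1 applies here.

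Cd8a, the α chain of the CD8 co-receptor, was at 229, 213 and 222 FPKM in unstimulated samples and at 361, 353 and 366 FPKM in TCR samples. All TCR samples lay above all unstimulated ones and Cd8a rose 1.63-fold (log2 difference 0.70, SE 0.05, adjusted p = 1.22e-08). It also rose on the common sum (log2 difference 0.29) and after quantile normalisation (0.41). The β chain gene Cd8b1, which is not one of the 9, rose less, from 245 ± 13.5 to 351 ± 15.2 FPKM (log2 difference 0.52, SE 0.05, adjusted p = 7.45e-07).

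The 2 kinases moved in opposite directions. Lck, the kinase that starts the cascade, was at 288, 297 and 289.8 FPKM before and 236, 227 and 239.6 FPKM after peptide. The groups were far apart for their narrow spread and Lck fell (log2 difference -0.32, SE 0.05, adjusted p = 2.71e-05). Zap70, the kinase that LCK activates, was at 70.1, 70.6 and 72.9 FPKM and then at 149.8, 129 and 132 FPKM. Zap70 rose 1.92-fold, just under the 2-fold threshold (log2 difference 0.94, SE 0.08, adjusted p = 4.55e-08). The directions of both kinases were the same on the common sum, at -0.73 for Lck and 0.53 for Zap70, and after quantile normalisation, at -0.62 and 0.76.

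Both adaptors rose. Lat, the membrane adaptor, measured 357, 349.9 and 346 FPKM in unstimulated and 621, 511 and 566 FPKM in TCR samples. The TCR samples were more scattered than the unstimulated ones but all above them (log2 difference 0.68, SE 0.09, adjusted p = 8.61e-06). Its rise was smaller on the common sum (0.27) and after quantile normalisation (0.26), and passed in both. Lcp2, which encodes the cytosolic adaptor SLP-76, measured 82.5, 90.96 and 82.5 FPKM and 188, 198 and 189.8 FPKM. Lcp2 rose 2.25-fold, the largest change among the 9 genes (log2 difference 1.17, SE 0.06, adjusted p = 1.11e-10), and by 0.76 and 0.98 on the log2 scale with the common sum and after quantile normalisation.

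**Figure D2:**
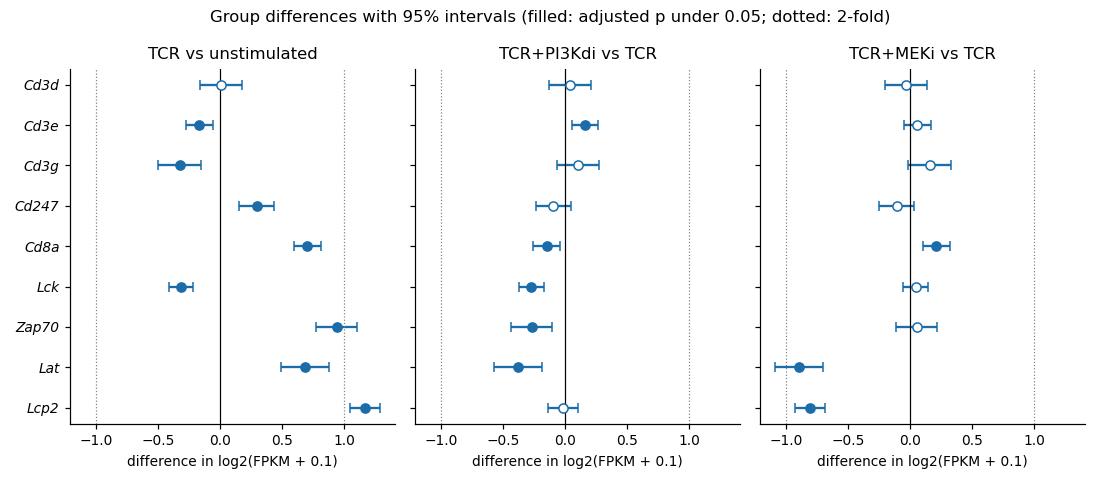
Difference between 2 groups in log2(FPKM + 0.1) for each gene (horizontal axes, with 95% intervals from limma), in 3 comparisons (panels), with filled points for an adjusted p under 0.05, a solid line at 0 and dotted lines at a 2-fold difference. Lcp2 is the only gene past 2-fold after peptide, at 1.17, Lat has the lowest value with the PI3K inhibitor, at -0.38, and Lat and Lcp2 stand apart with the MEK inhibitor, at -0.90 and -0.81.

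Ratios of 2 genes within a sample do not depend on how samples are scaled to each other. The level of Lck was 4.09 ± 0.114 times that of Zap70 in unstimulated CTL and 1.72 ± 0.127 times in TCR samples. With the PI3K inhibitor the ratio was 1.71 ± 0.188 and with the MEK inhibitor 1.71 ± 0.113. The 9 stimulated samples thus spanned 1.498 to 1.83, all below the unstimulated range of 3.98 to 4.2, and the 3 stimulated groups overlapped. Cd247 over Cd3e was 0.395 ± 0.0319 in unstimulated samples and 0.544 ± 0.0322 in TCR samples, and these did not overlap. It was 0.455 ± 0.0277 with the PI3K inhibitor, overlapping with unstimulated samples, and 0.483 ± 0.0198 with the MEK inhibitor, and every sample of both inhibitor groups was below every TCR sample. Lat over Lcp2 went from 4.12 ± 0.249 to 2.95 ± 0.362, 2.31 ± 0.329 and 2.77 ± 0.0832 in the TCR, TCR+PI3Kdi and TCR+MEKi groups, all 9 stimulated samples below the unstimulated range. Cd8a over Cd8b1 was 0.902 ± 0.0238, 1.03 ± 0.0363, 1.12 ± 0.013 and 1.17 ± 0.0474 in the same order of groups, with unstimulated below TCR and TCR below both inhibitor groups, which overlapped. The ratios were not tested and are given as a description.

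**Figure D3:**
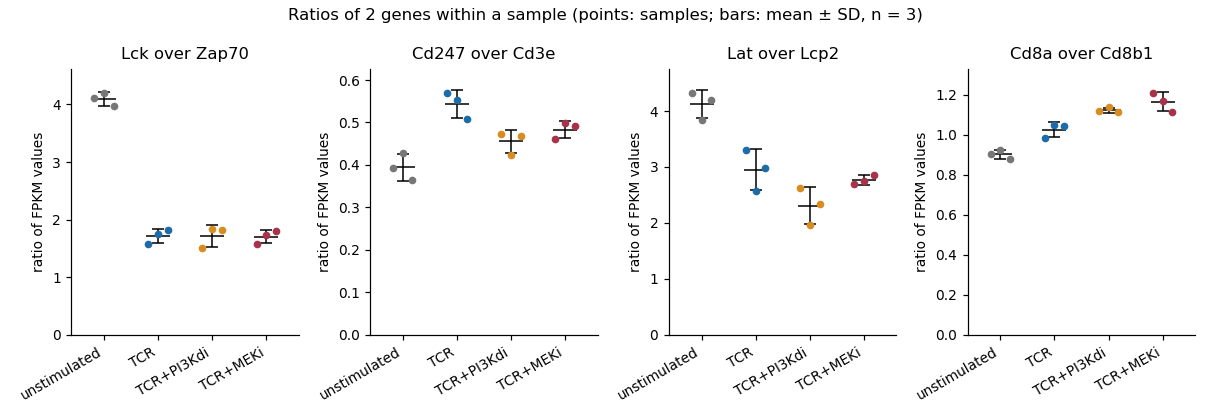
Ratio of the FPKM of 2 genes within each sample (vertical axes, from 0) in the 4 groups (horizontal axes), with points for samples and bars for the mean ± SD. Lck over Zap70 is 3.98 to 4.20 in unstimulated samples and 1.498 to 1.83 in the 9 samples given peptide.

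The second question was how these mRNAs differ when PI3K p110δ is inhibited during stimulation. Without a group given inhibitor alone, a difference from peptide alone need not be a lost part of the response. With IC87114 during stimulation 4 of the 9 mRNAs were lower than with peptide alone (Lat, Lck, Zap70 and Cd8a) and 1 was higher (Cd3e) at an adjusted p under 0.05 in limma, while 25.6% of all genes passed (12.7% higher, 12.8% lower). The samples of 5 genes did not overlap between the groups (37.6% of all genes). They were Lat, Lck, Cd8a, Cd3e and Cd247, the last of which was not called. None changed more than 2-fold, which 1.88% of all genes did. Lat measured 491, 374 and 444 FPKM in the TCR+PI3Kdi replicates against 621, 511 and 566 FPKM with peptide alone. It was lower in every same-numbered pair and fell 1.30-fold (log2 difference -0.38, SE 0.09, adjusted p = 0.0068). Lck measured 194, 189 and 197 FPKM against 236, 227 and 239.6 FPKM. Its groups did not overlap and Lck, already lowered by peptide, was lower again (log2 difference -0.28, SE 0.05, adjusted p = 0.000694). Zap70 measured 129.6, 103 and 108 FPKM against 149.8, 129 and 132 FPKM. These ranges overlap by 1 sample of each group, although Zap70 was lower in all 3 same-numbered pairs (log2 difference -0.27, SE 0.08, adjusted p = 0.0182). Cd8a measured 337, 326 and 311 FPKM, below all TCR samples by a small margin (log2 difference -0.15, SE 0.05, adjusted p = 0.0445), and its sign turned on the common sum (0.03, adjusted p = 0.62) and after quantile normalisation (0.04, 0.667). Cd3e measured 120.3, 129 and 122.6 FPKM, above all TCR samples (log2 difference 0.16, SE 0.05, adjusted p = 0.0309).

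The other 4 genes gave no call with the PI3K inhibitor on the deposited values. Lcp2, the gene with the largest rise after peptide, measured 187, 191 and 190.3 FPKM, overlapping with the TCR samples, and the 95% interval of its log2 difference was -0.14 to 0.10. The intervals were -0.13 to 0.21 for Cd3d, -0.07 to 0.28 for Cd3g and -0.24 to 0.05 for Cd247. Changes with this inhibitor were small and several calls turned on single samples. The call of Cd3e was lost without TCR replicate 1 or 2 or TCR+PI3Kdi replicate 2 or 3 (adjusted p = 0.0505, 0.104, 0.118 and 0.0601). That of Cd8a was lost without TCR replicate 1, 2 or 3 or TCR+PI3Kdi replicate 2 or 3 (0.0936, 0.0559, 0.125, 0.0855 and 0.165), and that of Zap70 without TCR replicate 1 or TCR+PI3Kdi replicate 2 or 3 (0.0871, 0.0877 and 0.0716). The calls of Lck and Lat held with any sample left out, but on the common sum the split became 3 higher (Cd3e at 0.34, Cd3g at 0.29 and Cd3d at 0.22) and 1 lower, with Lck at -0.09 (adjusted p = 0.145) and Lat at -0.20 (0.0442). Quantile normalisation gave the same 3 CD3 genes as higher (Cd3e 0.30, Cd3g 0.28 and Cd3d 0.20) and 0 lower, with Lck at -0.11 (adjusted p = 0.132) and Lat at -0.18 (0.117). The median of all genes was 0.02 as deposited and 0.19 on the common sum.

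The third question was how the mRNAs differ when MEK is inhibited during stimulation, and the same limit applies. With PD184252 both adaptor mRNAs were lower than with peptide alone (Lat and Lcp2), Cd8a was higher, and the CD3 chains and kinases did not pass on the deposited values, where 37.1% of all genes passed at an adjusted p under 0.05 in limma (18.9% higher, 18.2% lower). The samples of 5 genes (Lat, Lcp2, Cd8a, Cd3e and Cd247) were apart, against 48.8% of all genes. No member changed more than 2-fold, which 3.49% of all genes did. Lat measured 283, 324 and 303 FPKM in the TCR+MEKi replicates, far below the 621, 511 and 566 FPKM of the TCR replicates. It fell 1.87-fold and lay below the unstimulated samples too (log2 difference -0.90, SE 0.09, adjusted p = 3.50e-06). Lcp2 measured 105, 118 and 106 FPKM against 188, 198 and 189.8 FPKM. It fell 1.75-fold and lay between the unstimulated and the TCR samples without overlapping either (log2 difference -0.81, SE 0.06, adjusted p = 1.01e-07). Both falls also passed on the common sum (-0.64 for Lat, -0.55 for Lcp2) and after quantile normalisation (-0.68 and -0.65), and with any one sample left out.

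Cd8a measured 430.3, 419 and 401 FPKM in the TCR+MEKi replicates, the highest level of any group. All 3 lay above all TCR samples (log2 difference 0.21, SE 0.05, adjusted p = 0.00517). Zap70 measured 146, 143 and 136 FPKM, within the TCR range, with a 95% interval of its log2 difference of -0.11 to 0.22. Lck measured 231, 247 and 246 FPKM, overlapping with TCR samples, with an interval of -0.06 to 0.14. Of the CD3 chains, Cd3d measured 211, 200.1 and 216 FPKM (interval -0.21 to 0.13). Cd3e was at 115, 116 and 116 FPKM (-0.05 to 0.17), Cd3g at 290.0, 269.7 and 302 FPKM (-0.02 to 0.33) and Cd247 at 52.9, 57.5 and 57.1 FPKM (-0.26 to 0.03). The interval that reached farthest from 0 was that of Cd3g, to 0.33 on the log2 scale. The scaling matters for this count: on the common sum Cd3d (0.22), Cd3e (0.32), Cd3g (0.42), Lck (0.31) and Zap70 (0.31) passed as higher beside Cd8a, which made 6 higher and 2 lower. After quantile normalisation it was 5 and 2, with Cd3e (0.19), Cd3g (0.32), Lck (0.23) and Zap70 (0.19) beside Cd8a. The median of all genes was 0.01 as deposited, 0.26 on the common sum and 0.02 after quantile normalisation. All genes past 2-fold split into 108 higher and 277 lower as deposited and 323 and 202 on the common sum.

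**Figure D4:**
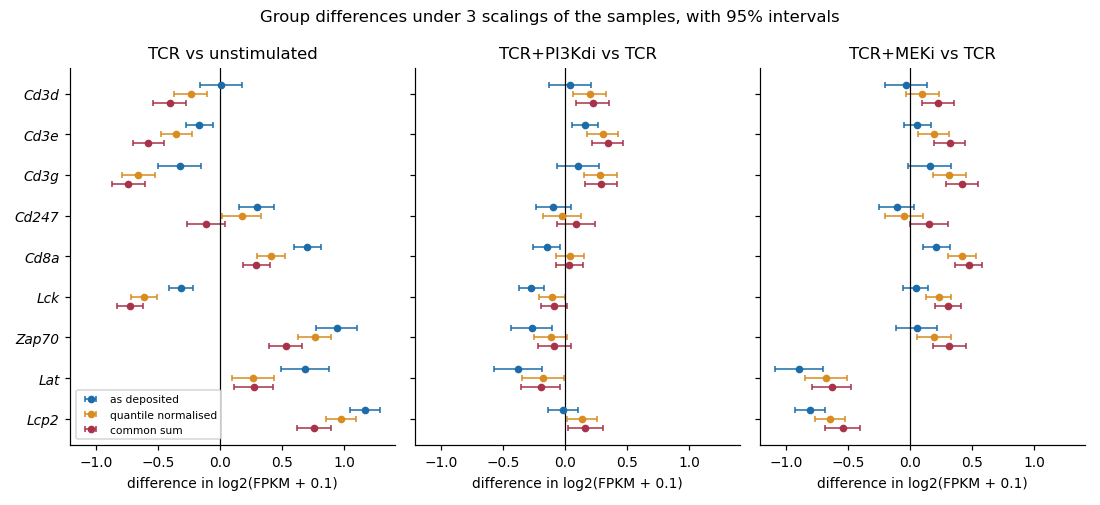
Difference between 2 groups in log2(FPKM + 0.1) for each gene (horizontal axes, with 95% intervals from limma), in 3 comparisons (panels), with the deposited values, after quantile normalisation and with each sample divided by its own sum (colours). After peptide Zap70, Lcp2, Cd8a and Lat stay above 0 and Lck, Cd3g and Cd3e below it in all 3, and with the MEK inhibitor Lat and Lcp2 stay below 0 in all 3.

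The inhibitor groups were then compared with each other, and this contrast is also the test of the difference between their effects in cells given peptide. No group received an inhibitor without peptide. The contrast therefore cannot separate effects on the response to peptide from effects present without it. Of the 9 genes 3 were higher with the MEK than with the PI3K inhibitor and 2 were lower, where 28.9% of all genes passed in limma (14.5% higher, 14.4% lower). The samples of 6 genes were apart (43.6% of all genes), and none was past 2-fold (3.09% of all genes). Lcp2 was at 105 to 118 FPKM with the MEK inhibitor and 187 to 191 FPKM with the PI3K inhibitor (log2 difference -0.79, SE 0.06, adjusted p = 1.33e-07). The groups were apart by more than their spread, so the adaptor gene with the largest rise after peptide was lower with 1 inhibitor than with the other. Lat was also lower with the MEK inhibitor, 283 to 324 against 374 to 491 FPKM (log2 difference -0.52, SE 0.09, adjusted p = 0.000606). Cd8a was higher with the MEK inhibitor (log2 difference 0.36, SE 0.05, adjusted p = 0.000101), as were Lck (log2 difference 0.32, SE 0.05, adjusted p = 0.000136) and Zap70 (log2 difference 0.32, SE 0.08, adjusted p = 0.00546), and none of these 3 overlapped between the groups. The 4 CD3 chains did not pass, with 95% intervals that reached from -0.245 (Cd3d) to 0.2232 (Cd3g). Neither the common sum nor quantile normalisation altered these counts of 3 and 2.

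Against unstimulated CTL, the samples given peptide and PI3K inhibitor had 5 genes higher and 2 lower (62.5% of all genes passed in limma, 31.7% higher and 30.8% lower). The samples of 6 genes were apart (66.0% of all genes), and Lcp2 was past 2-fold (14.6% of all genes). The values were 1.15 for Lcp2, 0.67 for Zap70, 0.55 for Cd8a, 0.30 for Lat and 0.20 for Cd247 on the log2 scale, and -0.59 for Lck and -0.22 for Cd3g. Lck had its lowest level of the 4 groups here, 189.2 to 197 FPKM against 288 to 297 FPKM without peptide. The calls of Cd3g and Cd247 were lost without unstimulated replicate 3 (adjusted p = 0.116 and 0.102) or TCR+PI3Kdi replicate 3 (0.0877 and 0.0567), and that of Cd3g without TCR+PI3Kdi replicate 2 (0.0813). With the common sum 3 were higher and 4 lower, none past 2-fold, and Lat was at 0.07 (adjusted p = 0.395) and Cd247 at -0.03 (0.708). After quantile normalisation Lat and Cd247 did not pass either (0.08 and 0.15, adjusted p = 0.401 and 0.0905).

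With peptide and MEK inhibitor 4 genes were higher than in unstimulated CTL and 1 lower (59.6% of all genes passed in limma, 28.9% higher and 30.7% lower). The samples of 7 genes were apart (66.7% of all genes), with none past 2-fold (13.4%). Zap70 (0.99 on the log2 scale), Cd8a (0.91), Lcp2 (0.36) and Cd247 (0.18) were the higher ones and Lck (-0.27) the lower one. Zap70 passed 2-fold without unstimulated replicate 3 or TCR+MEKi replicate 3, and Cd247 lost its call without unstimulated replicate 3 (adjusted p = 0.156) or TCR+MEKi replicate 2 or 3 (0.0954 and 0.0888). Lat, which peptide raised, was below all 3 unstimulated samples (log2 difference -0.21, SE 0.09, adjusted p = 0.0561 in limma). With replicate number as a block in limma, Lat was lower at adjusted p = 0.0484 and Cd3g at 0.035, where it had been 0.0774 without the block. The count then became 7. Without the block, Lat also passed on the common sum (-0.36, adjusted p = 0.000477), after quantile normalisation (-0.42, 0.000335), in the compared groups alone (0.00816) and when TCR+MEKi replicate 2 was left out (0.0419). Cd3g passed on the common sum (-0.32), after quantile normalisation (-0.35) and when unstimulated replicate 2 was left out (0.0417). With the common sum 3 were higher and 5 lower, and Cd247 was at 0.03 (adjusted p = 0.729).

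The other genes of the pathway were taken from 6 lists drawn up by known role, of which 78 of 87 genes had a row. The lists were chosen with earlier results of these data known, so their shares beside those of all genes are a description only. After peptide 16 of the 78 rose and 12 fell by more than 2-fold at an adjusted p under 0.05 in limma (35.9%, against 20.0% of all genes), and 29 and 34 passed at any size. Their median was 0.03 and that of all genes -0.01. With the common sum 10 rose and 21 fell by more than 2-fold, and 21 and 49 passed at any size. The group of 6 other receptor and co-receptor genes had 4 past 2-fold upwards and 0 downwards, with Cd6, a surface receptor of the scavenger receptor family, going from 4.05 ± 0.787 to 25.5 ± 3.55 FPKM (log2 difference 2.63, SE 0.12, adjusted p = 7.66e-11). Of 7 other proximal kinases 2 rose and 2 fell past 2-fold, with the Tec family kinase Tec going from 7.27 ± 0.205 to 24.9 ± 1.73 FPKM (log2 difference 1.76, SE 0.07, adjusted p = 1.97e-11). Past 2-fold, 2 of 9 phosphatases rose and 1 fell, and 2 of 6 ubiquitin ligases rose and 0 fell. At any size 6 phosphatases rose and 1 fell, and 2 ubiquitin ligases rose and 1 fell.

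Of 27 other adaptors 3 rose and 5 fell by more than 2-fold. Sla, which encodes an adaptor that promotes the degradation of receptor chains, had the largest rise of the lists, from 9.53, 9.01 and 9.86 FPKM to 149, 150.4 and 155 FPKM, about 16-fold (log2 difference 3.99, SE 0.05, adjusted p = 5.97e-17). Its relative Sla2 fell, from 52.2, 49.7 and 51.2 FPKM to 13.9, 14.5 and 13.7 FPKM (log2 difference -1.86, SE 0.09, adjusted p = 6.19e-11). The paralogs thus went in opposite directions, and neither shared 100-base transcript stretches with another gene, though 731 exon bases of Sla2 overlap Rab5if on the opposite strand. The membrane adaptors Sit1 and Pag1, the second of which holds the inhibitory kinase CSK at the membrane, fell by 2.19 and 2.14 on the log2 scale (adjusted p = 3.57e-09 and 9.70e-10). Of 23 effectors of the LAT complex 3 rose and 4 fell past 2-fold. Rasgrp1, a Ras activator that binds diacylglycerol, fell most, from 57.02 ± 2.37 to 9.71 ± 0.415 FPKM (log2 difference -2.54, SE 0.08, adjusted p = 1.59e-12), and Malt1, a protease of antigen receptor signalling to NF-κB, rose from 14.4 ± 0.229 to 51.8 ± 2.55 FPKM (log2 difference 1.83, SE 0.05, adjusted p = 3.15e-13).

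With the PI3K inhibitor 1 of the 78 genes was past 2-fold (1.28%, against 1.88% of all genes), and 20 were higher and 13 lower at any size. It was Cd5, an inhibitory surface receptor, at 7.63, 6.14 and 6.95 FPKM with peptide alone and 4.16, 2.68 and 3.44 FPKM with the inhibitor (log2 difference -1.01, SE 0.14, adjusted p = 0.000156). Those samples did not overlap, but the fold is near 2, and on the deposited scale no gene of the lists passed when TCR replicate 1 or 3 or TCR+PI3Kdi replicate 2 was left out. On the common sum 33 genes were higher and 8 lower at any size, and past 2-fold there were 0 lower and 1 higher, the costimulatory receptor gene Cd28 (1.17, chosen after its value was seen). With the MEK inhibitor 2 genes were higher and 3 lower by more than 2-fold (6.41%, against 3.49% of all genes), and 18 and 24 at any size. Cd6 fell to 10.4 ± 0.466 FPKM (log2 difference -1.27, SE 0.12, adjusted p = 2.22e-06) and Tec to 11.03 ± 0.407 FPKM (log2 difference -1.17, SE 0.07, adjusted p = 3.17e-08), both of which peptide had raised. Cd4, at low levels throughout, went from 2.65, 2.54 and 2.87 FPKM to 0.66, 0.41 and 0.28 FPKM (log2 difference -2.40, SE 0.29, adjusted p = 2.31e-05). Peptide had raised Cd4 too, from 0.89, 0.99 and 0.44 FPKM in unstimulated samples (log2 difference 1.74, SE 0.29, adjusted p = 9.53e-05 in limma). Rasgrp1 was higher with the MEK inhibitor than with peptide alone, at 22.4 ± 1.04 FPKM (log2 difference 1.20, SE 0.08, adjusted p = 1.05e-07), though still under its unstimulated level. Ptpn6, the phosphatase SHP-1, was at 69.5, 65.3 and 75.1 FPKM with the MEK inhibitor, above its level in every sample of the other groups (log2 difference 1.19, SE 0.07, adjusted p = 2.23e-08 against TCR). With the common sum 5 genes of the lists stood above and 2 below peptide alone by more than 2-fold, and 40 above and 11 below at any size, so that the balance of the lists turned. Between the inhibitors 6 of the 78 genes differed by more than 2-fold (7.69%, against 3.09% of all genes), 3 in each direction.

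**Figure D5:**
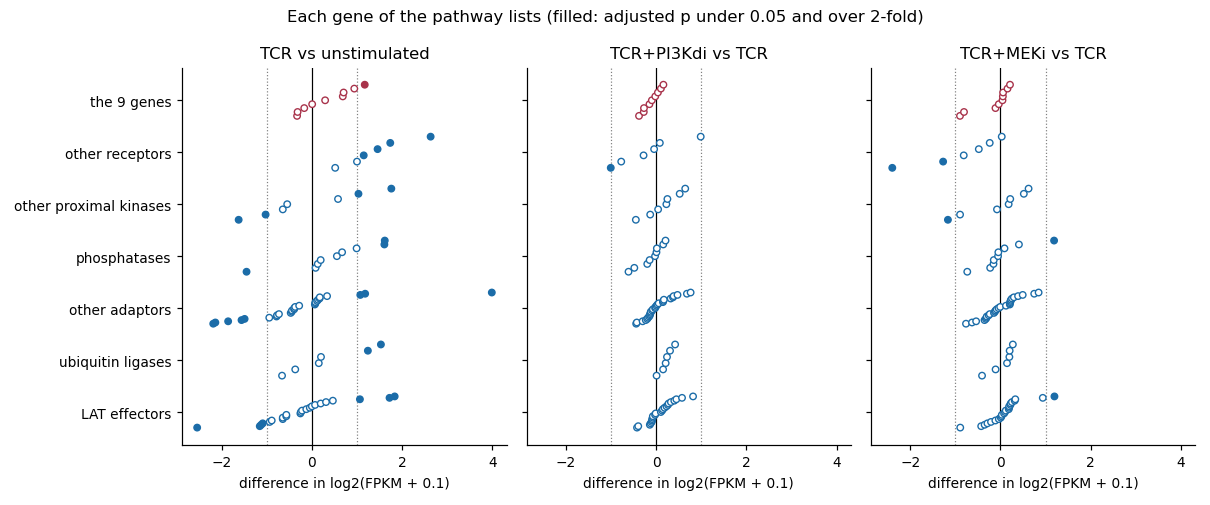
Difference between 2 groups in log2(FPKM + 0.1) for each of the 9 genes (red) and of the 78 other pathway genes by list (blue; horizontal axes), in 3 comparisons (panels), with filled points for an adjusted p under 0.05 together with more than 2-fold, which dotted lines mark. After peptide the other genes reach from -2.54 to 3.99 and the 9 genes from -0.33 to 1.17.

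The genes whose pattern over the 12 samples was most like that of each member were found by Pearson's r of log2(FPKM + 0.1) among 7489 genes of at least 5 FPKM, as a description. The 12 samples form 4 groups, so a high r says mostly that group means are alike. The nearest genes were Gfod1 (r = 0.997), Gcnt4 (0.996) and Mmd (0.993) for Lcp2. For Cd8a they were Rilpl2 (0.993), Npepps (0.987) and Osgin2 (0.986). For Zap70 they were Plod3 (0.991), Aars (0.988) and Gm11974 (0.987). For Lck they were Cltb (0.974), E2f4 (0.970) and Rac2 (0.968), and for Lat Capg (0.973), Fam108c (0.956) and Rab11fip4 (0.953). The CD3 chains had lower values: Bap1 (0.928), Tmem201 (0.926) and Txndc11 (0.925) for Cd247, Rala (0.921), Hdgfrp2 (0.918) and Usf1 (0.905) for Cd3g, Lipa (0.909), Mknk1 (0.899) and Fam102a (0.889) for Cd3e, and Acsl5 (0.900), Shfm1 (0.862) and 1810027O10Rik (0.845) for Cd3d. No member was among the nearest 3 of another.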

How the data were processed

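Values were FPKM that the authors deposited for 11022 genes in 12 samples. Per the labels and methods, the authors prepared libraries with a TruSeq stranded mRNA kit, aligned paired-end reads to mm10 with STAR 2.4.2a, counted RefSeq genes with Subread 1.5.0, removed genes with low counts, scaled by TMM in edgeR and divided by exon length; the submitters' processing notes give no edgeR version. FPKM are not counts, so log2(FPKM + 0.1) of all genes was fitted with limma 3.58.1 in R 4.3.3 (1 mean per group over 12 samples, eBayes with trend, Benjamini-Hochberg adjustment over 11022 genes). Calls were made at an adjusted p under 0.05, alone or with more than 2-fold, the study's threshold; adding 0.1 understates changes of low genes. The members and the lists of pathway and marker genes were chosen with earlier results of these data known. Named pathway genes were, among those called at 2-fold with at least 5 FPKM in a compared group for the peptide comparison, the 4 with the largest rise and 4 with the largest fall, and with each inhibitor up to 3 either way.

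The labels number replicates 1 to 3 in every group. The methods name 3 mice for the 3 biological replicates, and by that account the 4 groups drew on the same mice. They do not say whether a number marks 1 mouse in all groups. Deviations from group means correlated between same-numbered samples at 0.239 to 0.451 (TCR+PI3Kdi and TCR), 0.122 to 0.182 (TCR+MEKi and TCR), 0.137 to 0.149 (both inhibitor groups) and 0.117 to 0.147 (TCR+MEKi and unstimulated). For TCR and unstimulated the lowest was 0.004 and for TCR+PI3Kdi and unstimulated -0.06. The mean over same-numbered samples was above 0 in every comparison, from 0.021 (TCR+PI3Kdi and unstimulated) to 0.356 (TCR+PI3Kdi and TCR). A number that marked 1 mouse would pair all 4 groups, and these mostly low values do not settle whether the numbers mark the mice. The main fits used no block and so left out any pairing by mouse, and a block was run as an alternative. If cultures of 1 mouse are not separate, p-values measure only the spread between these samples.

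The depth of each sample is approximate, read from the spacing of its smallest FPKM values. Between 45.7% and 62.5% of these were whole reads to a tolerance of 0.15, where a depth fixed in advance would give 30% by chance. The depth was chosen to bring these same values closest to whole reads, so this share does not test it. Reads could not be recovered for a count test, and counting errors cover counting only. In simulated data for the peptide comparison with 200 changed genes among 11022, the fit recovered 85.5%, 98.5% and 100% at log2 changes of 0.5, 1 and 2, with 7, 11 and 11 false calls. The simulated samples were independent and had no difference in scale, and few genes changed, where 68.6% of all genes passed in the data. These figures therefore do not cover the effect of scaling or of variation shared by same-numbered samples. Alternatives were pseudocounts of 1 and 0.01, a filter at mean FPKM 1, a common FPKM sum, quantile normalisation, a replicate block, no trend, the compared groups alone and leaving out each replicate. Positions are from GENCODE M21 (GRCm38; 10307 of 11022 genes matched) and sequences from RefSeq (GRCm38.p6), matched for all 9 members. Python 3.11.15, NumPy 2.4.6, pandas 2.3.3 and matplotlib 3.10.9 were used.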

Additional observations from a re-analysis of the deposited data

How the results depend on the processing

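Of 756 values of the 54 log2 differences of the 9 genes under the alternatives, 667 kept their direction and side of the threshold, 37 lost the call, 25 gained it and 27 changed sign; the cause was not tested. For the 14 named pathway differences all 196 values kept direction and side of an adjusted p of 0.05. Not all stayed past 2-fold, the rule by which they were named. On the common sum Cd5 with the PI3K inhibitor and Tec with the MEK inhibitor, both against TCR, were no longer past it. Changes of sign concerned mostly differences that had not passed the test. On the common sum they were, for peptide against unstimulated, Cd3d -0.41 and Cd247 -0.12; for the PI3K inhibitor against TCR, Cd247 0.0861, Cd8a 0.0331 and Lcp2 0.16; for the MEK inhibitor against TCR, Cd3d 0.22 and Cd247 0.15; between the inhibitors, Cd3d 0.0033 and Cd247 0.064; and for the PI3K inhibitor against unstimulated, Cd3d -0.19 and Cd247 -0.0327. After quantile normalisation they were Cd3d -0.24 (peptide), 0.0974 (MEK inhibitor against TCR) and -0.0423 (PI3K inhibitor against unstimulated), and Cd8a 0.0375 and Lcp2 0.14 (PI3K inhibitor against TCR). With a sample left out Cd3d ranged from -0.0668 to 0.0819 for peptide (below 0 without unstimulated replicate 2 or TCR replicate 1), from -0.0426 to 0.0884 for the PI3K inhibitor against TCR (below 0 without TCR+PI3Kdi replicate 1), from -0.1265 to 0.0045 between inhibitors (above 0 without that same sample), from -0.0365 to 0.12 for the PI3K inhibitor against unstimulated (below 0 without unstimulated replicate 2 or TCR+PI3Kdi replicate 1) and from -0.1049 to 0.0438 for the MEK inhibitor against unstimulated (above 0 without unstimulated replicate 3). Likewise Cd3e ranged from -0.0401 to 0.0279 for the PI3K inhibitor against unstimulated (above 0 without replicate 1 of either group), Cd247 from -0.037 to 0.0228 between inhibitors (above 0 without TCR+MEKi replicate 1) and Lcp2 from -0.0346 to 0.0023 for the PI3K inhibitor against TCR (above 0 without TCR replicate 2).

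Of the counts, Lcp2 alone past 2-fold after peptide became 0 on the common sum and after quantile normalisation, and the 1 gene past 2-fold for the PI3K inhibitor against unstimulated became 0 on the common sum. The 5 members called with the PI3K inhibitor against TCR came to 3 after quantile normalisation (Cd3e, with Cd3d and Cd3g gained and Lat, Lck, Zap70 and Cd8a lost), 3 without the trend, 2 in the compared groups alone, and 2 to 5 with a sample left out (2 without TCR replicate 1 or TCR+PI3Kdi replicate 2 or 3, 3 without TCR replicate 2). The 3 called with the MEK inhibitor against TCR became 8 on the common sum and 7 after quantile normalisation, and the 5 against unstimulated became 8 on the common sum. Past 2-fold for the MEK inhibitor against unstimulated there were 0 to 1 with a sample left out, the 1 being Zap70. The 1 pathway gene past 2-fold with the PI3K inhibitor became 0 with a pseudocount of 1, 2 after quantile normalisation and 0 to 2 with a sample left out (0 without TCR replicate 1 or 3 or TCR+PI3Kdi replicate 2, 2 without TCR replicate 2). Over all genes a pseudocount of 1 gave 1405, 90, 201, 150, 979 and 873 genes past 2-fold in the 6 comparisons, where 2202, 207, 385, 341, 1608 and 1478 had been called with 0.1 (in the order peptide, PI3K inhibitor and MEK inhibitor against TCR, between inhibitors, and PI3K and MEK inhibitor against unstimulated); on the common sum 4366 and 6183 genes passed at any size with the PI3K and the MEK inhibitor against TCR, where 2818 and 4090 had. With the replicate block the count of members with the MEK inhibitor against unstimulated went from 5 to 7, as given above, and no other call of the 9 genes changed. The block gave 8 and 7 members for peptide and for the PI3K inhibitor against unstimulated, as without it. With 3 samples a group the 95% interval of a log2 difference of the 9 genes was up to 0.19 either way of its value.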

Other observations

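Several other genes of the lists, chosen here after their values were seen, had levels that set the groups apart. Csk, the kinase that phosphorylates the inhibitory tyrosine of LCK, was at 115 ± 2.26 FPKM (mean ± SD, n = 3) in unstimulated CTL and 56.3 ± 1.31 FPKM with peptide (limma log2 difference -1.03, SE 0.06, adjusted p = 5.33e-10), and at 80.5 ± 2.61 FPKM with the MEK inhibitor (0.52 against TCR, adjusted p = 7.95e-06). Fyn, a Src family relative of LCK, measured 53.8 ± 0.43 FPKM without and 110.1 ± 1.07 FPKM with peptide (1.03, adjusted p = 1.01e-09), and 59.3 ± 5.89 FPKM with the MEK inhibitor (-0.90 against TCR, adjusted p = 7.36e-08). Fyn therefore rose while Lck fell. Grap2, which encodes the adaptor GADS that links LAT to SLP-76, fell from 86.3 ± 1.62 to 30.7 ± 2.66 FPKM with peptide (-1.49, adjusted p = 8.77e-11), whereas the genes of both partners it joins, Lat and Lcp2, rose. Cd28, a costimulatory receptor, was at 25.1 ± 1.44 FPKM in unstimulated CTL, 55.9 ± 3.57 FPKM with peptide and 111 ± 1.56 FPKM with peptide and PI3K inhibitor, with no overlap between any 2 of these groups (0.99 for the inhibitor against TCR, adjusted p = 3.71e-07). Themis, an adaptor of T cell development, was at 48.1 ± 3.03 FPKM without peptide, 34.8 ± 2.95 FPKM with it and 62.4 ± 2.82 FPKM with the MEK inhibitor (0.84 against TCR, adjusted p = 6.77e-07).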
